A study of Mus musculus with 4 samples.

Results

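The Fc gamma receptors are the cell surface proteins through which macrophages, monocytes and granulocytes bind the constant part of IgG antibodies. Their mRNA was described in cardiac cells of CSF1R-EGFP+ reporter mice, in which the Csf1r promoter marks mononuclear phagocytes with EGFP. The set held 6 genes, taken by symbol from 31053 genes in the single-cell count tables: Fcgr1, Fcgr3 and Fcgr4, Fcgr2b, Fcer1g and Fcgrt. All 6 passed the filter on low counts in each class fit described here. One baseline library pooled 3 hearts of mice without surgery, and 3 infarct libraries each held 1 heart taken 7 days after left coronary artery ligation without reperfusion. All mice were 12 to 16 weeks old and carried the reporter, no other allele was named, and Ly6G- EGFP+ cells were sorted after enzymatic digestion. Before the sort, cells from both groups were incubated with an antibody to CD16/CD32, the proteins of Fcgr3 and Fcgr2b, and its effect on the mRNA of these genes was not tested. Since baseline was 1 library, infarction, animals and library preparation cannot be told apart in any comparison with it, and those comparisons have no test.

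Fcgr1 encodes CD64, the high-affinity IgG receptor, and Fcgr3 and Fcgr4 encode activating receptors of lower affinity. These ligand-binding chains signal through Fcer1g, the common gamma chain, whose tyrosine motif recruits Src family kinases and Syk and starts phagocytosis and cytokine release. Fcgr2b encodes the inhibitory receptor, which recruits the phosphatase SHIP1 (Inpp5d) and sets a threshold for the activating chains. Fcgrt encodes the neonatal Fc receptor, which works inside endosomes with beta-2 microglobulin and returns IgG and albumin to the cell surface.

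On mm10, with GENCODE gene models, 4 of the genes lay on chromosome 1. Fcgr2b spanned chr1:170958617-170976547 on the minus strand, Fcgr4 chr1:171018920-171029761 on the plus strand, Fcgr3 chr1:171051174-171064935 on the minus strand and Fcer1g chr1:171229572-171234365 on the minus strand, all within 276 kb. Fcgr1 lay apart at chr3:96282909-96293969 and Fcgrt at chr7:45092990-45103851, both on the minus strand. The low-affinity receptor genes are close relatives, and the antisense gene Gm38204 overlaps Fcgr2b. How reads shared between these genes were divided was not tested. The 250 bases before the start site (RefSeq, GRCm38.p6) are shown for Fcgr1 and Fcgr4, whose mean level was highest in interferon-response-like macrophages, and for Fcgr2b, whose window held no match. Capitals mark matches, on either strand, to TTCNNNGAA (the gamma-interferon activated site), the core of the interferon-stimulated response element and GAGGAAGT (a PU.1 site).
Fcgr1, chr3:96293970-96294219, minus strand: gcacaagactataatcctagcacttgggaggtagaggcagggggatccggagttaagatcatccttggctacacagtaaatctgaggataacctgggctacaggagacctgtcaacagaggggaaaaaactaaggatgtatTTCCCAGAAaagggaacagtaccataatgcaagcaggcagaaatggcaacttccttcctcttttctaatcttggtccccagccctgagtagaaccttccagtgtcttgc
Fcgr4, chr1:171018676-171018925, plus strand: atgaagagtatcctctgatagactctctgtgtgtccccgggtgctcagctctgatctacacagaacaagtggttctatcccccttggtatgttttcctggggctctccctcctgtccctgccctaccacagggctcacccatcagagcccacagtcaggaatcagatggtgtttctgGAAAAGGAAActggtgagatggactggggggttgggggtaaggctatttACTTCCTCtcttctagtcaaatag
Fcgr2b, chr1:170976072-170976321, minus strand: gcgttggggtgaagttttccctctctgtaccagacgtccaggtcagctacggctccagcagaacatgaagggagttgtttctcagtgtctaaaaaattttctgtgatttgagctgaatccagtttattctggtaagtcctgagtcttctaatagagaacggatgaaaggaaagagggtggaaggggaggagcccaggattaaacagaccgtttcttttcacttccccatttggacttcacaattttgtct
The Fcgr1 window held TTCCCAGAA, 109 to 101 bases before the start, a motif found in 7.02% of 32851 promoter windows of this length. The Fcgr4 window held GAAAAGGAAA, 73 to 64 bases before the start (2.98% of windows), and ACTTCCTC, the PU.1 letters on the other strand, 24 to 17 bases before it (2.44% of windows). Neither Fcgr3, Fcer1g, Fcgrt nor Fcgr2b held any of these 3 motifs. RefSeq and GENCODE starts differ, however. The Fcgr2b window and the windows of Fcgr3, such as chr1:171059404-171059653, lie inside the GENCODE genes given above. For both genes the bases before the GENCODE start were not searched, so the lack of a match covers the RefSeq windows only. Of 2 further motifs searched and not marked, AGGAAG (an ETS core, 29.5% of windows, which overlaps the PU.1 site) stood in the windows of Fcgr1, Fcgr3, Fcgr4 and Fcer1g, and TTGCNNAA (a C/EBP core, 9.56%) in those of Fcgr3 and Fcgrt. A match describes the sequence and does not show that a factor binds there.

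After a gate of 500 to 40000 UMIs and more than 200 genes, 10238 baseline cells and 10117 to 10782 cells per infarct library remained. Median depth was 6398 UMIs per cell at baseline and 8470 to 8556 in the infarct libraries, and library pairs shared 26 to 34 cell barcodes. Macrophages were gated on C1qa, C1qb and C1qc and divided by marker genes, none of them an Fc receptor gene, and monocytes, dendritic cells and granulocytes were gated likewise. The 12 classes with at least 20 cells in every infarct library were compared. Granulocytes here are the granulocyte-like cells that remained in the Ly6G- sort, 60, 45 and 79 in the infarct libraries. They need not stand for the granulocytes of the infarct. Among the leading genes were Lyve1, Folr2 and Cbr2 in the resident-like class and Gpnmb, Fabp5 and Spp1 in the reparative-like class. Ifit3, Rsad2 and Cxcl10 were among those of the interferon-response-like class, and Vcan, Ly6c2 and Chil3 among those of classical monocytes. All of these were markers used in the gates, so their lead followed from the gating and is no check of the names. Levels below are CPM, the UMIs of a gene as a scaled share of all UMIs of the class, without mitochondrial genes. Cells of types that should lack most of these mRNAs give a reference level. In 110 endothelial-like cells at baseline, Fcgr1 stood at 15.4 CPM, Fcgr4 at 7.70, Fcgr2b at 89.9, Fcgr3 at 97.6 and Fcer1g at 408 CPM, and in the infarct libraries, which held 3 to 28 fibroblast-like and 5 to 6 endothelial-like cells each, Fcer1g stood at 73.7, 88.6 and 691 CPM in the former and at 120, 1893 and 826 CPM in the latter.

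The first question was which infarct cells carried each receptor. Class sums were compared with the sums of all other cells of the same heart by edgeR's quasi-likelihood test, with Benjamini-Hochberg adjustment over all genes and a threshold of 0.01. Of 72 pairs of member and class, 52 passed, 15 higher and 37 lower, while per class between 5.08% and 16.4% of all genes were higher and between 4.12% and 18.8% lower. Without the heart as a block, 33 passed, 4 higher and 29 lower. The share of all genes called was not taken for that fit, so these counts have no background.

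**Figure D1:**
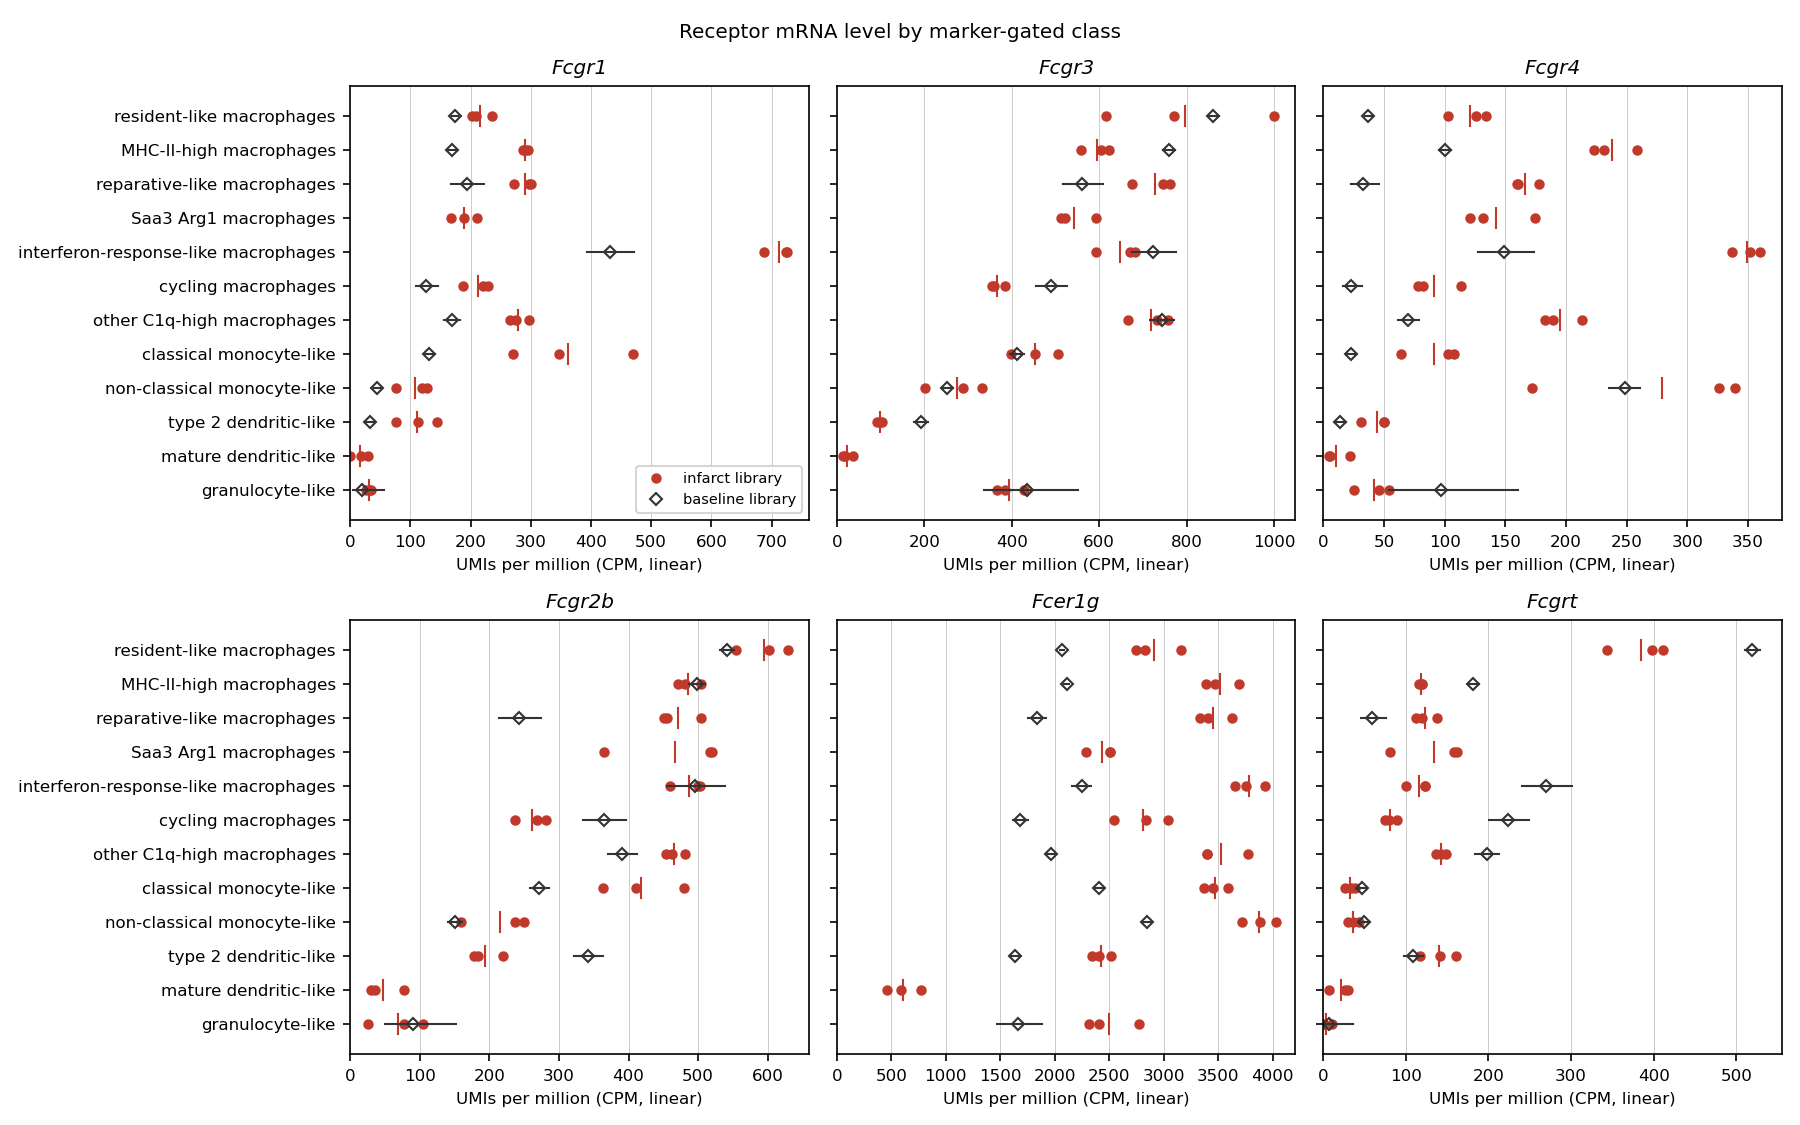
Level of each receptor mRNA (x axis, CPM, linear and different in each panel) by class (rows). Red points are the 3 infarct libraries with their mean as a red line, and open diamonds are the baseline library with its 95% Poisson interval, drawn where a class had at least 20 baseline cells. Fcgr1 and Fcgr4 reach 713 and 350 CPM on average in interferon-response-like macrophages, Fcgrt reaches 384 CPM in resident-like macrophages, and mature dendritic cells are at or near the lowest level in every panel.

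Fcgr1 had its highest level in interferon-response-like macrophages. It reached 688, 724 and 726 CPM in the 3 infarct libraries, and 713 ± 21.4 CPM (SD, n = 3) on average, against 269 ± 19.4 CPM in all other cells. The groups did not overlap, and the log2 difference was 1.53 ± 0.04 (SE; edgeR adjusted p = 5.85e-13). By number, the class held 14806 of the 81164 infarct Fcgr1 UMIs, fewer than the 22045 of reparative-like macrophages and near the 14048 of MHC-II-high macrophages. Against all other macrophage classes summed, a comparison chosen after the values were seen, the log2 difference was 1.47 (edgeR adjusted p = 1.37e-13). Classical monocytes came next, with 347, 470 and 270 CPM, and stood below the interferon-response-like class by 1.02 ± 0.13 on the log2 scale (edgeR adjusted p = 1.10e-07), in a comparison in which 39.4% of genes passed. From classical monocytes down to Saa3 Arg1 macrophages, at 189 ± 21.1 CPM, no neighbours in the order of levels passed (edgeR adjusted p from 0.028 to 0.99). Only neighbours are given here, which does not show that the range is level. Non-classical monocytes held 108 ± 27.9 CPM (log2 -1.58, adjusted p = 5.69e-16), type 2 dendritic cells 111 ± 34.4 CPM and granulocytes 31.2 ± 4.80 CPM (log2 -3.56, adjusted p = 4.55e-32).

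Fcgr4 had its highest mean in the same class. Interferon-response-like macrophages held 352, 337 and 360 CPM, against 168 ± 14.8 CPM in all other cells (log2 1.18 ± 0.05, edgeR adjusted p = 3.77e-10). In MHC-II-high macrophages, Fcgr4 stood at 231, 259 and 223 CPM (log2 0.62 ± 0.03, adjusted p = 1.27e-06). Fcgr1 did not pass there (log2 0.07 ± 0.05, adjusted p = 0.31), and the difference between the 2 genes was not tested. Non-classical monocytes, which patrol vessels and are known for Fcgr4, held 340, 326 and 172 CPM (log2 0.52 ± 0.12, adjusted p = 3.42e-04). They were not told apart from interferon-response-like macrophages (log2 0.45 ± 0.16 lower, adjusted p = 0.021; 27.5% of genes passed). Infarct library 3 stood below the other two, and the call was lost without library 1 (log2 0.32, adjusted p = 0.030) and with DESeq2 (log2 0.53, adjusted p = 0.026). Fcgr4 was lower in classical monocytes, at 91.6 ± 24.0 CPM (log2 -0.99 ± 0.11, adjusted p = 2.65e-04), in resident-like macrophages, at 121 ± 16.2 CPM (log2 -0.72, adjusted p = 1.04e-08) and in cycling macrophages, at 91.2 ± 19.6 CPM (log2 -1.09, adjusted p = 2.56e-07).

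Fcgr3 was found in every macrophage class. Reparative-like macrophages held 674, 763 and 746 CPM against 553 ± 46.9 CPM in other cells (log2 0.50 ± 0.04, edgeR adjusted p = 7.83e-05), but with Leiden clusters in place of gates the log2 difference was 0.16 (adjusted p = 0.057). Resident-like macrophages had the highest mean, 795 ± 193 CPM, with 616, 999 and 771 CPM, and did not pass (log2 0.26 ± 0.09, adjusted p = 0.026). In granulocytes, Fcgr3 stood at 384, 428 and 365 CPM (log2 -0.91 ± 0.19, adjusted p = 2.58e-05), while Fcgr1, Fcgr2b and Fcgrt stood at 31.2, 69.2 and 3.42 CPM. Fcgr3 made up 84.2% ± 3.58 of the activating receptor UMIs of these few granulocyte-like cells left by the Ly6G- sort. In type 2 dendritic cells, Fcgr3 was lower, at 104, 98.8 and 91.1 CPM (log2 -2.66 ± 0.08, adjusted p = 2.00e-11).

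Fcgr2b stood at 418 to 595 CPM on average in classical monocytes and in all macrophage classes but the cycling class. Resident-like macrophages held 629, 602 and 555 CPM, MHC-II-high macrophages 486 ± 16.8 CPM and interferon-response-like macrophages 488 ± 24.0 CPM. From resident-like macrophages down to classical monocytes, neighbours in the order of levels had edgeR adjusted p from 0.41 to 0.96. Classes further apart in this order are not compared here. The call for resident-like macrophages (log2 0.30 ± 0.09, edgeR adjusted p = 8.88e-03) was lost in 10 of 12 alternatives. That for reparative-like macrophages (log2 0.22 ± 0.04, adjusted p = 4.87e-03) turned to -0.25 (adjusted p = 3.67e-03) with clusters in place of gates. Below these, Fcgr2b was lower in cycling macrophages, at 262 ± 23.0 CPM (log2 -0.84 ± 0.07, adjusted p = 9.20e-07), in non-classical monocytes, at 215 ± 49.0 CPM (log2 -1.14, adjusted p = 9.16e-13) and in type 2 dendritic cells, at 194 ± 22.7 CPM (log2 -1.25, adjusted p = 1.12e-08).

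Fcer1g was the most abundant of the 6 by UMIs, at 2424 to 3878 CPM on average in every class but 1. Interferon-response-like macrophages held 3657, 3930 and 3753 CPM (log2 0.33 ± 0.04, edgeR adjusted p = 1.71e-05). Non-classical monocytes reached 3720, 4031 and 3882 CPM and did not pass (log2 0.17 ± 0.09, adjusted p = 0.18). Type 2 dendritic cells held 2424 ± 90.8 CPM of this signalling chain while their ligand-binding chains were low, so that Fcgr1, Fcgr3 and Fcgr4 together gave 0.104 ± 0.0169 UMIs per Fcer1g UMI, against 0.452 ± 0.0162 in interferon-response-like macrophages.

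Fcgrt had its highest level in resident-like macrophages. It stood at 411, 398 and 343 CPM there, against 115 ± 2.92 CPM in all other cells (log2 1.61 ± 0.10, edgeR adjusted p = 5.89e-33), in classes of only 105 to 146 cells. Other C1q-high macrophages came next at 143 ± 6.04 CPM and lay below the resident-like class by 1.34 ± 0.14 on the log2 scale (adjusted p = 1.90e-08), in a comparison in which 9.22% of genes passed. Both monocyte classes were low, with 32.6 ± 6.20 CPM in classical (log2 -1.88, adjusted p = 1.12e-05) and 36.3 ± 7.09 CPM in non-classical monocytes (log2 -1.77, adjusted p = 9.05e-14). In granulocytes, 2 Fcgrt UMIs were found over the 3 libraries.

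Counted by class, 5 of the 6 members were higher in interferon-response-like macrophages, where 7.37% of all genes were called higher and 4.12% lower. Fcgrt was not called (log2 0.09, adjusted p = 0.32). Of these 5, the calls of Fcgr2b and Fcgr3 were lost against all other macrophage classes summed (log2 0.15 and 0.06, edgeR adjusted p = 0.018 and 0.32). Leaving that comparison aside, the Fcgr3 call was lost in 3 of 13 alternatives, that of Fcgr2b in 2 and that of Fcer1g in 1. The Fcgr1 and Fcgr4 calls were lost in 0. All 6 were lower in cycling macrophages (10.7% of genes called lower), in mature dendritic cells (12.7%) and in granulocytes (8.76%), and none was higher there (13.1%, 9.66% and 5.08% of genes called higher). Among these, the Fcer1g call was lost in cycling macrophages without library 2 (adjusted p = 0.065) and in granulocytes without library 2 (0.01035) or library 3 (0.27), and the Fcgr3 call in granulocytes without library 3 (0.040). The median log2 of all genes was -0.40 in granulocytes, -0.36 in mature dendritic cells and -0.047 in cycling macrophages. Some counts were small, with 5, 4 and 8 Fcgr1 UMIs in granulocytes. Mature dendritic cells held 16, 5 and 0 Fcgr1 UMIs and 3, 6 and 1 Fcgr4 UMIs. Type 2 dendritic cells were lower in 5 members, all but Fcgrt (18.8%), and higher in 0 (16.4%). Mature dendritic cells, which have left antigen capture for antigen presentation, held 608 ± 154 CPM of Fcer1g and between 10.7 and 47.7 CPM of the other 5. Non-classical monocytes were lower in 4 members (11.2% of genes called lower) and higher in Fcgr4 (9.64% called higher). Classical monocytes were lower in Fcgr3, Fcgr4 and Fcgrt (14.6%) and higher in 0 (13.3%), with the Fcgr3 call lost without library 3 (adjusted p = 0.036). Resident-like macrophages were higher in Fcgr2b and Fcgrt (5.31%) and lower in Fcgr1, Fcgr4 and Fcer1g (6.35%). The Fcer1g call there was lost without library 1 (adjusted p = 0.018), without library 3 (0.037), with 1 more marker asked for (0.032) and without the heart as a block (0.12). MHC-II-high macrophages were higher in Fcgr2b, Fcgr4 and Fcer1g (9.03%) and lower in 0 (11.1%), and reparative-like macrophages higher in Fcgr2b and Fcgr3 (10.9%) and lower in 0 (13.8%). Saa3 Arg1 macrophages were lower in Fcgr1, Fcgr4 and Fcer1g (12.1%) and higher in 0 (13.2%). There the Fcgr4 call (log2 -0.38) was lost in 7 of 13 alternatives, among them without library 2 (log2 -0.21, adjusted p = 0.11) or library 3 (adjusted p = 0.056), and the Fcer1g call without library 1 (0.019) or library 3 (0.034). Other C1q-high macrophages were higher in Fcgr3 and Fcgrt (10.3%) and lower in Fcgr1 (14.7%), a call (log2 -0.17) lost in 4 of 12 alternatives, among them without library 2 (adjusted p = 0.020) and without the heart as a block (0.31).

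Across the 12 classes, the genes whose mean log2(CPM + 10) was most like each member were found by Pearson's r among 4952 genes with at least 50 CPM in a class. These were Rrbp1, Ms4a6d and Ifi207 for Fcgr1 (r = 0.98, 0.97 and 0.97), Asah1 and Rrbp1 for Fcgr2b (0.97 and 0.97), and Hacd4, Cd302 and Cd84 for Fcgr3 (0.99, 0.98 and 0.96). Lair1, Itgav and Sh3bp2 were most like Fcgr4 (0.95, 0.93 and 0.93), Ppt1, Cd300c2 and Tm6sf1 most like Fcer1g (0.97, 0.97 and 0.96), and Tcf4, Prkacb and Ap1b1 most like Fcgrt (0.95, 0.94 and 0.94). The classes share their 3 libraries, and r is a description over 12 points.

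The second question was how infarct and baseline cells differed. Over all cells, Fcgr4 stood at 70.3 CPM at baseline (95% Poisson interval 68.3 to 72.3, counting error only) and at 175, 201 and 169 CPM in the infarct libraries, a ratio of 2.58. Fcgr1 stood at 145 CPM (142 to 148) against 283, 336 and 288 CPM, a ratio of 2.08. Fcer1g was 2073 CPM (2062 to 2084) against 3177, 3546 and 3206 CPM, a log2 ratio of 0.68. Fcgrt went the other way, from 260 CPM (256 to 264) to 116, 120 and 121 CPM, 2.19 times lower. Fcgr2b held 425 CPM (420 to 430) against 442, 459 and 436 CPM, a log2 ratio of 0.07. So 4 of the 6 members lay above baseline in all 3 infarct libraries and 1 below, as did 40.3% and 47.9% of all genes of at least 50 CPM. Fcgr3 held 640 CPM (634 to 646) against 541, 641 and 625 CPM. Fcgr3 thus lay on both sides of baseline, at a log2 ratio of -0.09, which became 0.20 under TMM scaling. TMM scaling raised the median log2 ratio of all genes from -0.06 to 0.22.

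**Figure D2:**
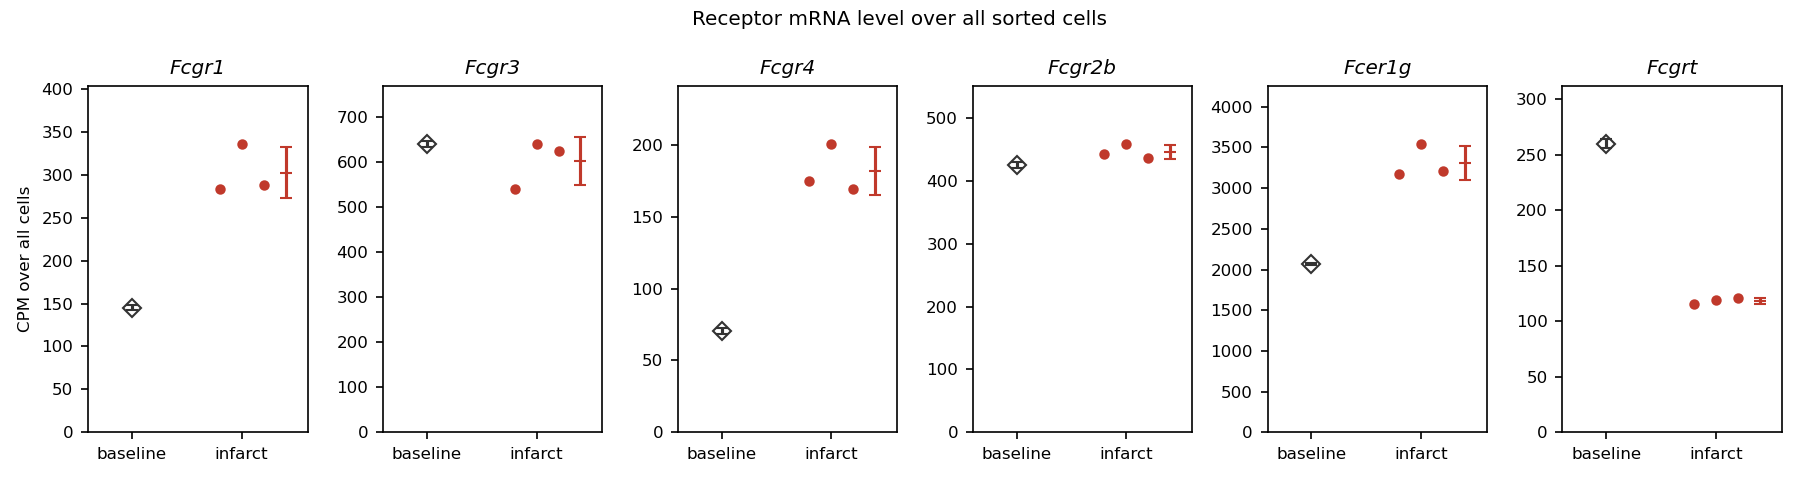
Level of each receptor mRNA over all sorted cells (y axis, CPM, from 0 and different in each panel). Open diamonds are the baseline library with its 95% Poisson interval, red points the 3 infarct libraries, and the red bar their mean and SD. Fcgr1, Fcgr4 and Fcer1g lie above baseline in all 3 infarct libraries, Fcgrt lies below, Fcgr2b lies slightly above, and Fcgr3 on both sides.

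Depth differed between the groups, so shares of cells with a UMI were taken after each cell was thinned to 2000 UMIs. Fcgr4 was then seen in 13.3% of 8991 baseline cells (exact binomial 95% interval 12.6 to 14.0) and in 27.3% ± 2.37 of infarct cells (unthinned difference 32.5 percentage points, thinned 14.0). Fcgr1 was seen in 22.6% (21.7 to 23.5) and 38.9% ± 3.36, and Fcgrt in 32.6% (31.6 to 33.6) and 19.0% ± 0.710. Among 70 endothelial-like baseline cells of that depth, Fcgr4 was seen in 0%, with an upper bound of 5.13%, and Fcgr1 in 2.86%. Fcgrt was seen in 10.0% of them, which is not taken as a background level for that gene.

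The Fcgr4 difference was present inside most classes. In all, 10 classes had at least 20 cells in all 4 libraries. In 8 of them Fcgr4 lay above baseline in all 3 infarct libraries, a share to be read against that of all genes. In the order resident-like, MHC-II-high, reparative-like, interferon-response-like, cycling and other C1q-high macrophages, classical and non-classical monocytes, type 2 dendritic cells and granulocytes, 34.1%, 39%, 35.6%, 38.5%, 38.9%, 38.5%, 39%, 32.4%, 40.9% and 42.6% of genes lay above baseline in all 3 infarct libraries, and 35.5%, 48.5%, 52.5%, 49.6%, 46.7%, 49.1%, 42.4%, 37.1%, 42.2% and 31.7% below. Resident-like macrophages went from 37.3 CPM (34.8 to 39.9) to 134, 126 and 103 CPM. In MHC-II-high macrophages the values were 99.9 CPM (95.02 to 105) and 231, 259 and 223 CPM, and in classical monocytes 23.2 CPM (19.5 to 27.4) and 103, 108 and 64.0 CPM. The reparative-like class, with only 67 baseline cells, had 33.1 CPM (22.9 to 46.2) and 160, 178 and 160 CPM. Non-classical monocytes stood apart: their 248 CPM at baseline (236 to 261) lay between the infarct libraries, at 340, 326 and 172 CPM. Granulocytes lay below the baseline value, at 97.1 CPM (54.4 to 160) and 46.1, 25.7 and 54.6 CPM, from 15 baseline UMIs and 25 infarct UMIs.

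Fcgr1 and Fcer1g lay above baseline in all 3 infarct libraries in each of the 10 classes, with median log2 ratios of 0.74 and 0.66. Granulocytes, with 3 Fcgr1 UMIs at baseline, lay within the baseline interval for Fcgr1. Among the 10 classes the Fcgr1 ratio was smallest in resident-like macrophages, from 174 CPM (168 to 179) to 202, 235 and 209 CPM. It was largest in type 2 dendritic cells, from 32.3 CPM (26.3 to 39.3) to 113, 144 and 75.8 CPM. The few B-cell-like cells, outside the 10 classes, went from 27.7 CPM of Fcgr1 to 176, 485 and 187 CPM. Their Fcer1g went from 721 CPM to 1848, 2594 and 1629 CPM. Fcgr1 stood at 0 CPM in the few infarct endothelial-like cells and at 6.51, 0 and 0 CPM in fibroblast-like cells. The part of RNA from other cells in these levels was not tested. Interferon-response-like macrophages were already high at baseline, with 431 CPM (394 to 471) of Fcgr1. Fcgrt lay below baseline in all 3 infarct libraries in 7 of 10 classes, and the share of all genes doing so was 31.7% to 52.5% over the 10 classes. These included resident-like macrophages, from 519 CPM (510 to 529) to 411, 398 and 343 CPM, and cycling macrophages, from 224 CPM (201 to 249) to 79.1, 74.7 and 89.0 CPM. Fcgr2b and Fcgr3 had median log2 ratios of 0.06 and -0.13 over the 10 classes.

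The make-up of the sort changed between the groups, with 2898 resident-like cells at baseline and 105 to 146 per infarct library. To hold it fixed, infarct levels of the 10 classes were weighted by the baseline share of UMIs in each class, an alternative chosen after the values were seen. The classes held 81.9% to 91.3% of UMIs. Fcgr4 was then 168 ± 21.9 CPM against 74.7 CPM at baseline, while baseline levels at the infarct make-up gave 64.8 ± 1.95 CPM. Fcgr1 was 247 ± 21.4 CPM against 152 CPM, and 189 ± 8.49 CPM for baseline levels at the infarct make-up. For Fcgrt, baseline levels at the infarct make-up gave 147 ± 3.16 CPM against 280 CPM, and infarct levels at the baseline make-up 203 ± 13.6 CPM.

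Because gates cut a range, C1q-high macrophages were also divided by the number of marker genes detected. Fcgr1 went from 233 ± 13.6 CPM in infarct cells with 0 of 6 interferon-response markers to 353 ± 4.73 CPM with 2 and 797 ± 56.2 CPM with 5 or more. Fcgr4 went from 166 ± 16.5 to 225 ± 13.5 and 380 ± 24.1 CPM. At baseline, Fcgr1 went from 156 to 481 CPM over the same range and Fcgr4 from 59.5 to 152 CPM. Fcgr2b stayed between 463 and 522 CPM and Fcgr3 between 630 and 678 CPM on average in infarct cells. Fcgrt went from 108 ± 3.53 CPM with 0 of 8 resident markers to 285 ± 17.1 CPM with 4 in infarct cells, and from 147 to 273 CPM at baseline. With 5 or more, it stood at 396, 541 and 283 CPM in 36 to 118 cells per infarct library and at 571 CPM in 2275 baseline cells. Median depth of these infarct cells went from 7957 to 8030 UMIs with 0 interferon-response markers to 9716 UMIs or more with 5, and its part in the trend was not tested.

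**Figure D3:**
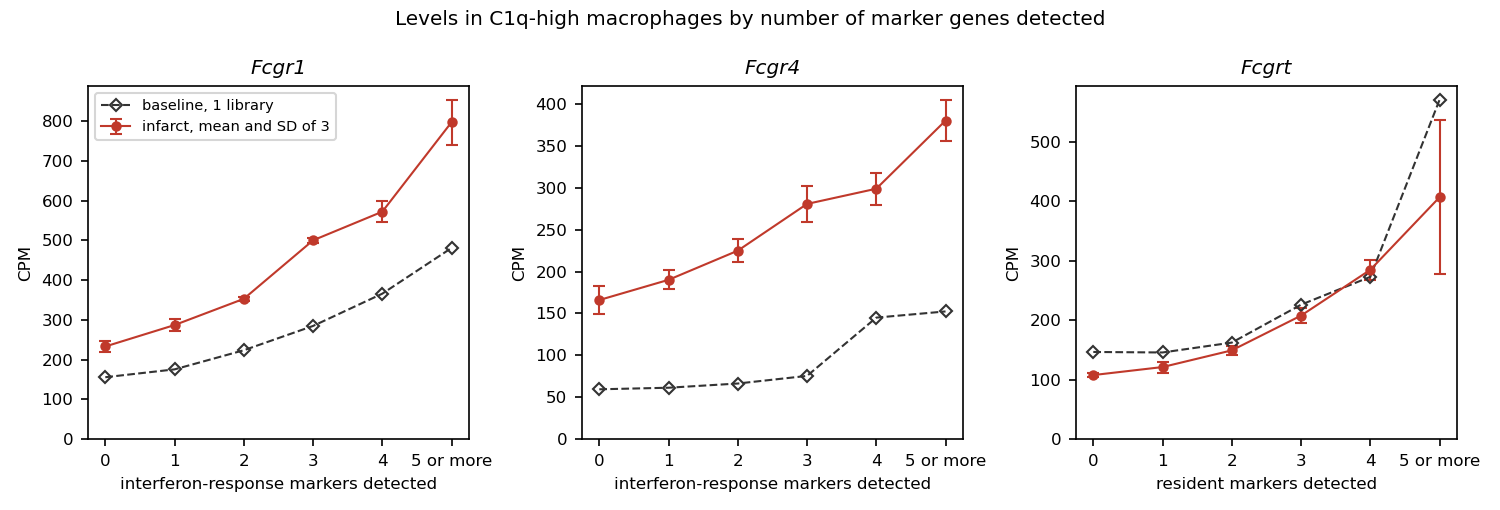
Fcgr1, Fcgr4 and Fcgrt (y axes, CPM, from 0) in C1q-high macrophages by number of interferon-response or resident marker genes with a UMI (x axes). Red points are means of the 3 infarct libraries with SD, and open diamonds the baseline library. Fcgr1 climbs from 233 to 797 CPM and Fcgr4 from 166 to 380 CPM in infarct cells, with baseline lower at each step, whereas Fcgrt is higher at baseline with 0 markers (147 against 108 CPM) and with 5 or more (571 against 407 CPM) and slightly lower with 4 (273 against 285 CPM).

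The mixture of activating receptors differed with these levels. Over all cells, Fcgr3 gave 74.8% of activating receptor UMIs at baseline and 55.4% ± 2.00 in infarct libraries, and Fcgr4 8.21% and 16.7% ± 0.971. In interferon-response-like infarct macrophages Fcgr1 gave 41.7% ± 0.557 and Fcgr3 37.8% ± 1.33. In type 2 dendritic cells after infarction Fcgr1 gave 43.2% ± 5.59 and Fcgr3 39.5% ± 6.15. These shares rest on low levels, 111 CPM of Fcgr1 and 98.0 CPM of Fcgr3. Baseline endothelial-like cells held 15.4 CPM of Fcgr1 and 97.6 CPM of Fcgr3, and infarct B-cell-like cells 176, 485 and 187 CPM of Fcgr1. The part of RNA from other cells in these shares was not tested. Non-classical monocytes split between Fcgr3 and Fcgr4 in both groups, with Fcgr4 at 45.5% at baseline and 41.7% ± 3.34 after infarction. Activating UMIs per Fcgr2b UMI were 2.01 at baseline and 2.44 ± 0.159 in infarct libraries over all cells, 2.63 and 3.51 ± 0.0589 in interferon-response-like macrophages, and 1.98 and 1.91 ± 0.375 in resident-like macrophages. The infarct ratio was below baseline in reparative-like macrophages, at 3.25 and 2.52 ± 0.118, and in non-classical monocytes, at 3.64 and 3.04 ± 0.227. The 3' counts carry no correction between genes for capture, so these ratios compare classes and not amounts of protein.

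**Figure D4:**
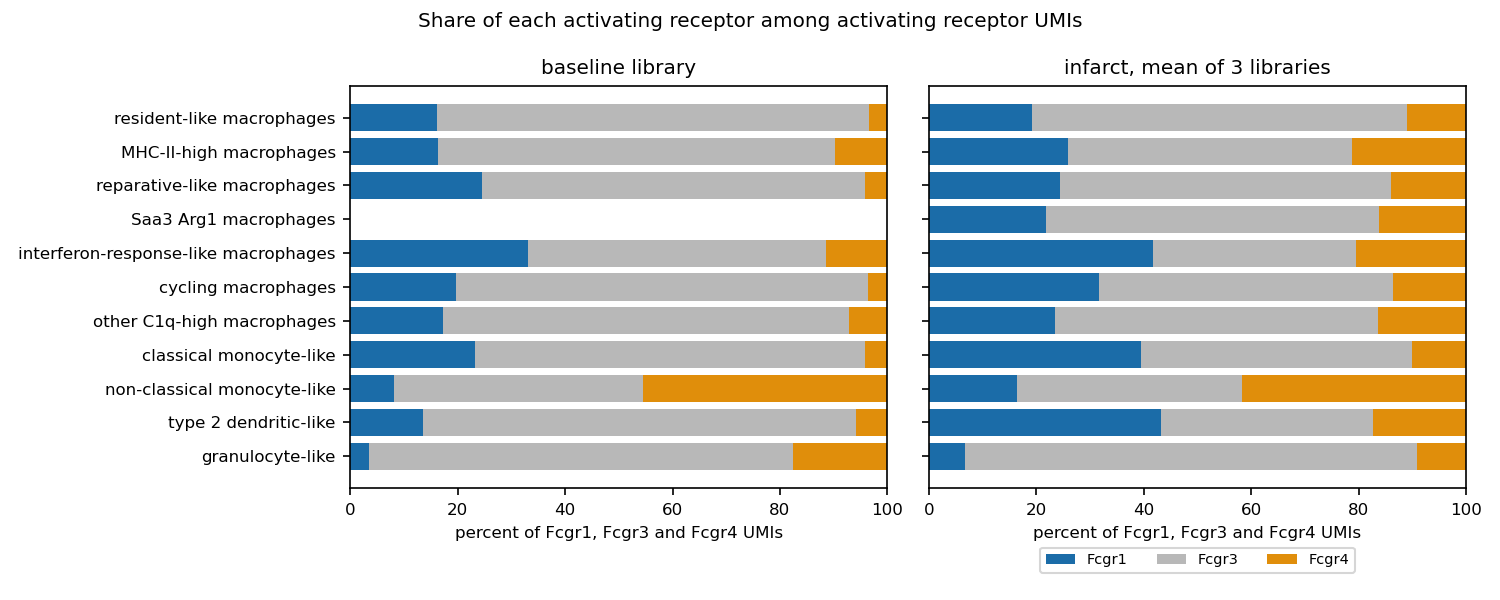
Share of Fcgr1, Fcgr3 and Fcgr4 in their summed UMIs (x axis, percent) by class, in the baseline library and as the mean of the 3 infarct libraries. The baseline bar of Saa3 Arg1 macrophages is left out, with 10 cells there, and mature dendritic cells are not shown. Fcgr4 takes 45.5% and 41.7% in non-classical monocytes, and Fcgr1 takes 41.7% in interferon-response-like infarct macrophages.

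The signalling genes downstream were taken from lists of 19 activating and 10 inhibitory cascade genes. In non-classical monocytes, 12 of 19 activating genes were higher and 3 lower in the class test (9.64% and 11.2% of all genes), with a list median log2 of 0.63 against -0.18 for all genes. Fgr, a Src family kinase, stood at 372 CPM against 69.0 CPM in other cells (log2 2.40), and the adaptor Lcp2 at 219 against 98.3 CPM (1.10). The adaptor Blnk was low there, at 6.83 against 102 CPM (log2 -3.96). Classical monocytes had 11 higher and 4 lower (13.3% and 14.6% of all genes), MHC-II-high macrophages 8 and 0 (9.03% and 11.1%), and interferon-response-like macrophages 6 and 1 (7.37% and 4.12%). Resident-like macrophages had 0 higher and 7 lower (5.31% and 6.35%), cycling macrophages 0 and 8 (13.1% and 10.7%), and mature dendritic cells 1 and 13 (9.66% and 12.7%). In the other 5 classes 3 to 5 were higher and 2 to 7 lower, where 5.08% to 16.4% of all genes were higher and 8.76% to 18.8% lower. Of the 10 inhibitory genes, 8 were lower and 1 higher in mature dendritic cells (12.7% and 9.66% of all genes), with Inpp5d at 30.3 against 162 CPM (log2 -2.26). Of 10 other Fc-binding proteins and partners, 7 were tested. In interferon-response-like macrophages 3 were higher and 3 lower (7.37% and 4.12% of all genes), with a median log2 of 0.017 against -0.015 for all genes. Trim21, the cytosolic IgG receptor, stood at 28.1 against 10.6 CPM (log2 1.54), B2m, the partner of Fcgrt, at 3409 against 2899 CPM (log2 0.36), and Fcrls at 765 against 615 CPM (log2 0.45). The 3 that were lower, Fcer2a, Fcmr and Fcrla, stood at 0 to 0.46 CPM against 0.93 to 1.96 CPM.

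Between infarct and baseline, the cascade genes lay on both sides. Of 16 activating cascade genes of at least 50 CPM, 7 lay above baseline in all 3 infarct libraries and 6 below, where 40.3% and 47.9% of all genes did, with a median log2 ratio of -0.13. Tyrobp, a signalling adaptor like Fcer1g, stood at 2172 CPM and at 2932, 3045 and 2926 CPM, and Lat2 at 81.7 CPM and 133, 131 and 131 CPM. Syk went the other way, from 203 CPM to 146, 113 and 132 CPM, and Btk from 77.0 CPM to 52.3, 52.4 and 59.0 CPM. Of 9 inhibitory genes, 5 lay below and 1 above, where 47.9% and 40.3% of all genes did. The inhibitory receptor Lilrb4a stood at 348 CPM and at 86.1, 106 and 103 CPM, and Inpp5d at 185 CPM and 166, 158 and 161 CPM.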

How the data were processed

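Cells of the Csf1r-EGFP sort were profiled with the 10x Genomics 3' v3.1 kit. The authors deposited UMI counts per gene and cell, made with Cell Ranger on mm10 (3.1.0 in the matrix header, 3.0.1 in the submitters' processing notes). No values were normalized before deposit. Here, cells with 500 to 40000 UMIs and more than 200 genes were kept, and 88157753 to 97944428 UMIs were deposited per infarct library and 71093963 at baseline. Classes were gated on marker genes, with limits set after marker counts were seen. Counts were summed by library and class without mitochondrial genes. Class sums were tested against all other cells of the same heart with edgeR 4.0.16 (quasi-likelihood, TMM, heart as block, since both sums came from 1 animal), over 13357 to 13822 genes. With simulated counts for classical monocytes (13487 genes), 97% of changes of log2 1 were recovered. Only genes above a limit on expected counts were changed, so the share does not cover low counts. Smaller classes were not simulated. Scrublet called 0% to 1.97% of cells, under 0.5% in each infarct library, so no doublets were removed in the main analysis; they were removed by score in an alternative. Infarct and baseline were compared without a test. Named were all 6 members, the 3 genes most like each over classes, and list genes that passed a test or lay on one side of baseline. The members and lists were chosen with earlier results of these data known. Python 3.11.15, scanpy 1.11.5 and DESeq2 1.42.0 were also used. Some genes that this rule for named genes selects are not reported here.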

Additional observations from a re-analysis of the deposited data

Results flagged for a closer look

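For 3 members, all infarct libraries lay above the baseline interval in one class and below it in another; this difference between classes was not tested, and baseline was 1 library. Fcgr2b had a log2 ratio of infarct over baseline of 0.96 in reparative-like macrophages and of -0.82 in type 2 dendritic cells. Fcgr3 had 0.37 in reparative-like macrophages and -0.97 in type 2 dendritic cells. Fcgrt had 1.05 in reparative-like macrophages and -1.47 in cycling macrophages. The reparative-like class held 67 cells at baseline against 1966 to 2788 per infarct library, and its leading genes at baseline included Cxcl9 and Il7r beside Spp1 and Gpnmb.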

How the results depend on the processing

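Of the 52 calls, 30 held under every other setting tried, leaving aside the 3 chosen after seeing the data, 8 more were lost only without the replicate block, and 14 were lost under at least 1 further setting. Clusters in place of gates covered only 60 of the 72 pairs of member and class. Calls in resident-like and other C1q-high macrophages, that of Fcgrt among them, were not tried under that setting. Hearts pair the class sums by design. Without the replicate block, 4 pairs of member and class were higher and 29 lower. Leaving out 1 infarct heart gave 14 to 17 higher and 31 to 35 lower. The share of all genes called was not taken under these settings. Signs turned, on the log2 scale, as follows, and the cause was not tested. With clusters in place of gates, Fcgr2b stood at 0.24 in classical monocytes, and in reparative-like macrophages Fcgr1 stood at -0.20, Fcgr2b at -0.25 and Fcgrt at -0.24. Against macrophages and monocytes only, the values were -0.053 for Fcgr1 and -0.047 for Fcgr3 in MHC-II-high macrophages, -0.015 for Fcer1g, -0.071 for Fcgr2b and -0.059 for Fcgr4 in other C1q-high macrophages, -0.12 for Fcgr1 in reparative-like and -0.064 for Fcgr2b in Saa3 Arg1 macrophages. With 1 more marker asked for, Fcgr2b stood at -0.11 and Fcgrt at -0.047 in Saa3 Arg1 macrophages. Against all other macrophage classes summed, a comparison chosen after seeing the data, Fcgrt stood at -0.088 in the interferon-response-like class. Without 1 heart, Fcgr2b ranged from -0.17 to 0.043 in classical monocytes and from -0.11 to 0.25 in Saa3 Arg1 macrophages, and Fcgr1 from -0.071 to 0.13 in reparative-like macrophages. Of these, the turn of Fcgr2b in reparative-like macrophages was one between calls.

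For infarct over baseline in all cells, in the order Fcgr1, Fcgr2b, Fcgr3, Fcgr4, Fcer1g and Fcgrt, TMM scaling gave log2 ratios of 1.35, 0.35, 0.20, 1.66, 0.96 and -0.84, and UMIs per cell 1.43, 0.44, 0.28, 1.74, 1.05 and -0.76. The median of all genes was then 0.22 and 0.31, against -0.06 in CPM. At the baseline make-up of classes, chosen after seeing the data, Fcgr1 gave 0.70, Fcgr2b 0.11, Fcgr4 1.17 and Fcgrt -0.46. The mean of each cell's CPM gave 0.18 for Fcgr2b, 1.15 for Fcgr4 and -1.01 for Fcgrt, thinning to 2000 UMIs 0.12 for Fcgr2b and 1.06 for Fcgr4, and macrophages and monocytes only -1.23 for Fcgrt. For the median within classes, UMIs per cell gave 1.08 for Fcgr1, 0.36 for Fcgr2b, 0.10 for Fcgr3 and 0.84 for Fcer1g, thinning 0.63 for Fcgr1 and 0.21 for Fcgr2b, and stricter gates 0.12 for Fcgr2b, which ranged from 0.056 to 0.085 without 1 heart. For shares of cells with a UMI, infarct minus baseline in percentage points without thinning and at 1000 and 4000 UMIs was 26.5, 11.0 and 21.2 for Fcgr1, 32.5, 8.05 and 23.8 for Fcgr4, 6.32, 12.0 and 0.57 for Fcer1g, and -5.11, -8.24 and -17.0 for Fcgrt. Without thinning it was 10.3 for Fcgr2b and 5.61 for Fcgr3. No paired analysis was possible between infarct and baseline because baseline was 1 library.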

Other observations

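B-cell-like cells, which are known to carry Fcgr2b and to lack Fcer1g, were few, with 86 cells at baseline and 25, 9 and 41 in the infarct libraries. Fcer1g stood at 721 CPM in them at baseline and at 1848, 2594 and 1629 CPM after infarction, and Fcgr1 at 27.7 CPM and 176, 485 and 187 CPM. Type 1 dendritic-like cells (18 at baseline, 7 to 12 per infarct library) held 393 CPM of Fcer1g at baseline and 895, 956 and 842 CPM after infarction.

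After thinning to 2000 UMIs, 40.0% of baseline cells and 42.3% to 46.7% of infarct cells had a UMI of both an activating receptor and Fcgr2b. In type 2 dendritic cells 18.4% had both at baseline and 10.2% to 13.6% after infarction, and 43.8% and 51.5% to 53.3% had neither.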
